A study of Homo sapiens with 52 samples.

Results

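The transcriptome of WI-38 cells at the end of 24 h in 75 mM KCl (Ca2+-Sen, day 0) was compared with that of untreated cells. WI-38 is an established line of normal human lung fibroblasts that stops dividing after a limited number of passages. Members were taken by level alone, as every gene whose mean over the compared libraries reached 10 normalized counts, which gave 15353 of the 59408 genes listed. The nearest genes on either side of the limit had means of 10.0032 and 9.99976. The whole series holds RNA sequencing of 52 libraries in 26 groups, 2 libraries in each. Ca2+-Sen day 0 and untreated cells were each represented by 2 libraries, 4 in all. The untreated cells had passed between 32 and 46 population doublings. For the comparisons with other groups, PMD-Sen day 0 cells had been in 0.009% SDS and DDR-Sen day 0 cells in 250 nM doxorubicin (DXR), each for 24 h, and Ca2+-Sen day 1 cells had been washed free of KCl for 1 day. All groups are 1 cell line, all are set against the same 2 untreated libraries, and the doublings of the KCl-treated cells are not given in the sources used here. No group received another salt or an osmolyte, so calcium entry, depolarization, potassium itself and the added solute cannot be told apart in this design.

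Raised potassium outside the cell lowers the potential across the plasma membrane, which can open voltage-gated calcium channels. Calcium then acts through calmodulin, calmodulin-dependent kinases and the phosphatase calcineurin, whose targets include the transcription factors CREB and NFAT and early genes such as FOS. Added salt also draws water from cells, and cells answer a hypertonic medium through NFAT5, which raises transporters and enzymes that accumulate compatible osmolytes such as myo-inositol, betaine, taurine and sorbitol. The sodium-potassium pump, made of a catalytic alpha and a beta subunit, keeps potassium high and sodium low inside the cell.

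The mean normalized count of each gene is a weighted sum of whole reads in the 4 libraries, and from it the reads of each library could be recovered for 15183 of the 15353 members. The KCl libraries were the deeper ones, at about 51.7 M and 28.6 M (M for mega) counted reads, against about 18.8 M and 15.4 M for the untreated libraries (24.9% to 28.4% of each total is estimated from the genes without recovered reads). No count says which recovered library was replicate 1 or 2, so the libraries of each group are called here the deeper and the shallower one, and values are given in that order. The 2 libraries of a group were independent samples per the study's methods, and the labels do not say whether these were separate cultures, so p-values measure the spread between such samples. Libraries of a group lay close together: the median absolute log2 ratio was 0.11 between the KCl libraries and 0.15 between the untreated libraries, against 0.50 between the group means. The 10 fibroblast markers were all members, 3 called higher and 6 lower. The 5 with recovered reads summed to 40625 and 37618 normalized counts in the untreated and 55918 and 54915 in the KCl libraries, while the more abundant COL1A1, COL1A2, COL3A1, DCN and VIM, without recovered reads, were all called lower. Of the 6 white blood cell markers CD3E had no read in any library, and CD14 alone was a member. Of 5 endothelial markers, CDH5 and KDR stayed under 2 normalized counts in every library and PECAM1 is described with the genes near 0 reads. Of 6 epithelial markers KRT18 rose by 1.24 and KRT19 fell by 2.11, of 5 neuronal ones SYT1 rose by 1.06 and SNAP25 fell by 1.71, and of 6 smooth muscle ones DES rose and 4 fell, while EPCAM was not called and MYH11 was under 10.

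In this comparison 7697 members (50.1%) passed an adjusted p-value of 0.05, 3754 of them higher (24.5% of members) and 3943 lower (25.7%) in KCl-treated cells (DESeq2's Wald test in the authors' table, two-sided, Benjamini-Hochberg adjustment over the members). These genes are called higher or lower below, and "rose" and "fell" are used of them alone. The shares of a list given below are to be read against these 24.5% higher and 25.7% lower. A list near both shares does not stand out from the members. The median log2 fold change of all members was 0.0033. A change of at least 2-fold was seen in 1385 of the genes called higher and 1512 of those called lower, and one of at least 8-fold in 263 and 37. Both KCl libraries lay above both untreated ones in 6213 of the 15183 members with reads (40.9%) and below them in 6170 (40.6%). Of the called genes with reads, 7593 of 7600 had groups that did not overlap.

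**Figure D1:**
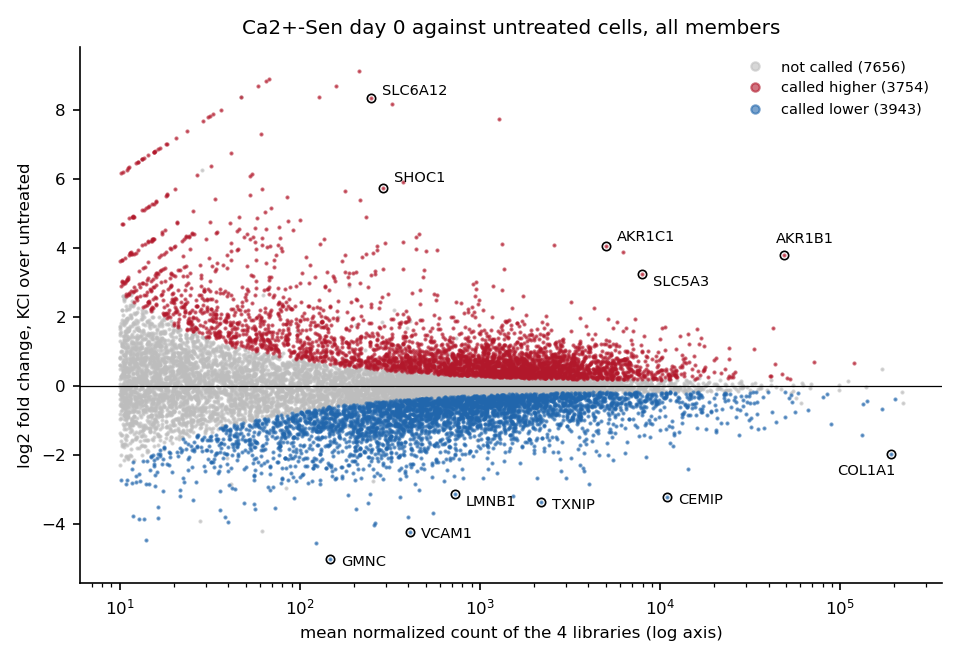
Log2 fold change of each of the 15353 members (y axis, KCl over untreated) against its mean normalized count in the 4 libraries (x axis, log scale), 1 point a gene. Red points (3754) were called higher, blue points (3943) lower and grey points were not called. The diagonal rows of red points at the upper left are genes with few or no reads in the untreated libraries.

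Among members with a mean of at least 100 and a standard error under 0.5, the 20 leading rises ran from a log2 fold change of 5.75 down to 3.83. The first was SHOC1, known for its part in crossing-over in meiosis. SHOC1 had 579 and 562 normalized counts in the KCl libraries and 13.9 and 6.73 in the untreated ones, a log2 fold change of 5.75 ± 0.43 (SE, 2 libraries a group; adjusted p = 1.2e-38 by the Wald test with Benjamini-Hochberg adjustment). CGNL1, a junction protein of the cingulin family, had 387 and 454 against 4.16 and 16.8 (5.40 ± 0.46). CYP26B1, which degrades retinoic acid, had 462 and 445 against 12.5 and 18.5 (4.89 ± 0.38). None of these groups overlapped, and the KCl libraries lay close to each other in all 3 genes.

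The other leading rises held enzymes, secreted proteins and noncoding RNAs. LUCAT1, a stress-induced long noncoding RNA, had 953 and 795 normalized counts against 41.6 and 40.4 (4.42 ± 0.26). TNFAIP6, which encodes a hyaluronan-binding secreted protein, had 675 and 740 against 37.4 and 42.0 (4.16 ± 0.26). PRSS35, a serine protease-like secreted protein, had 4630 and 5174 against 342 and 232 (4.08 ± 0.14). In each of these 3 both KCl libraries lay far above both untreated ones. BMF, a pro-apoptotic member of the BCL2 family, had 870 and 781 against 45.8 and 60.5 (3.97 ± 0.24). ABCG1, a cholesterol exporter, had 436 and 573 against 22.2 and 45.4 (3.93 ± 0.32). EDNRB, the endothelin receptor type B, had 1034 and 1133 against 45.8 and 97.5 (3.93 ± 0.49). The remaining names were MYH15, AC107959.1, AL161431.1, FBXO2, TNFSF15, SLCO4A1, MRPS6 and 4 aldo-keto reductases taken up below.

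**Figure D2:**
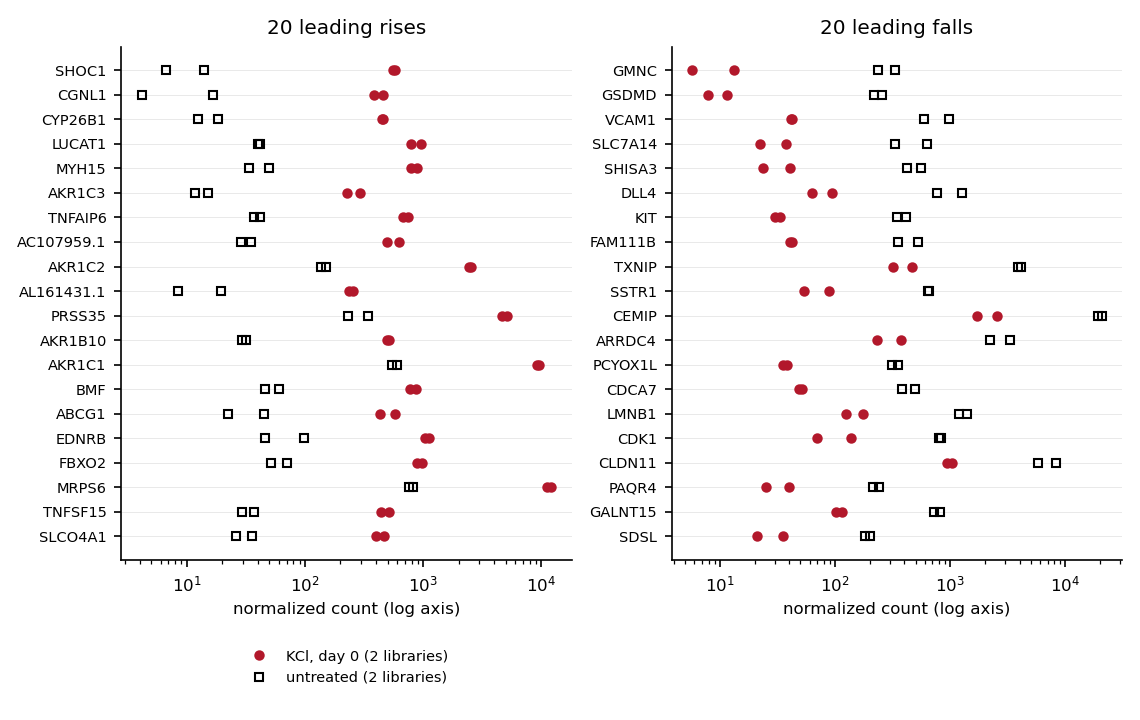
Normalized counts (x axis, log scale) of the 20 leading rises and the 20 leading falls in the 2 KCl libraries (filled circles) and the 2 untreated libraries (open squares), 1 row a gene in the order of its log2 fold change. The circles and squares do not overlap in any of the 40 rows.

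Promoters of 250 bases before to 50 after the start were given by RefSeq (GRCh38.p14) for 10701 of the members, and 15 of the 20 leading rises had one. Motifs were searched on both strands and a match is a description of letters only. The full cAMP response element (CRE), TGACG directly followed by TCA, was in none of those 15, in 20 of 877 promoters of genes called at least 2-fold higher (2.28%), in 50 of 1114 called at least 2-fold lower (4.49%) and in 3.19% of all members. Its share of all promoters was 1.98%. The AP-1 site TGANTCA, bound by FOS and JUN proteins, was in 9.35% of the promoters of genes called at least 2-fold higher, in 3.50% of those called at least 2-fold lower and in 4.82% of members, and in 7.76% of all 27305 promoters. The TATA box TATAAA was in 10.9%, 4.31%, 5.72% and 11.95% of the same sets. The CRE core TGACG alone was in 26.6%, 37.4%, 33.96% and 25.01%, and some of its matches lie within a full CRE. The EGR site, GCGTG directly followed by GGCG, was in 0.912%, 2.33%, 1.31% and 0.784%, the CCAAT box CCAAT in 33.9%, 41.3%, 36.2% and 35.7%, the CArG box in 1.48%, 1.53%, 1.09% and 1.29%, the NFAT core GGAAAA in 22.01%, 20.9%, 20.4% and 24.3%, and the antioxidant response element, added after the data were seen, in 16.3%, 14.5%, 15.4% and 13.6%. The promoters of LUCAT1 (chr5:91314353-91314652, minus strand) and TNFAIP6 (chr2:151357342-151357641, plus strand) are the first 2 of the leading rises with an AP-1 site, a choice made after their values were seen, and are shown with the site in capitals.
LUCAT1: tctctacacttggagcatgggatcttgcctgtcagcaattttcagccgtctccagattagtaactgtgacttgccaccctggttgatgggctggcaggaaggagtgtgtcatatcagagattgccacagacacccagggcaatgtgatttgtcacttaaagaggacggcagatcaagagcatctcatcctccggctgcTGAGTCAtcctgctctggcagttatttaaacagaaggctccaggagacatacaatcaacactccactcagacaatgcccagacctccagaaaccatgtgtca
TNFAIP6: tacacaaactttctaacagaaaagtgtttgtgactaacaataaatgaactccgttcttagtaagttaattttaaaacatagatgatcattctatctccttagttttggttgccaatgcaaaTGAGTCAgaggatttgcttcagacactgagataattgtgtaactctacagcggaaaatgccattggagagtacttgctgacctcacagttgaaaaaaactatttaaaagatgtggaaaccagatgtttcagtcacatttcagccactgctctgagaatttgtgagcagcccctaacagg

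The genes of osmotic and ion balance held several large rises. Of 24 measured, 13 were called higher (54.2%, against 24.5% of all members) and 2 lower, with a median log2 fold change of 0.51. SLC6A12 encodes the betaine transporter BGT1 (chr12:183848-214157 in RefSeq, GRCh38.p14). It had 400 and 591 normalized counts in the KCl libraries and 0 and 3.36 in the untreated ones, that is 1513 reads against 2. The ratio was 308, with a 95% interval for counting error of 85.0 to 2543 (exact, from the binomial share). SLC6A12 reached the level limit for members almost wholly through the KCl libraries, so its place among the 13 describes that limit. SLC5A3, the sodium/myo-inositol cotransporter, had 13551 and 15048 against 1614 and 1386 (log2 3.25 ± 0.10). AKR1B1, the aldose reductase that makes sorbitol, rose by 3.79 ± 0.26 at a mean of 48563 normalized counts, too high for its reads to be recovered. MRPS6, a mitochondrial ribosomal protein gene, was among the leading rises with 11154 and 12122 against 825 and 760 (3.87 ± 0.10). SLC5A3 (chr21:34073578-34106260) and MRPS6 (chr21:34073578-34143030) start at the same base in RefSeq and overlap, so their reads cannot be fully told apart.

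Smaller rises covered the other osmolyte carriers and the sodium-potassium pump. The taurine transporter SLC6A6 rose by 0.91 and the amino acid transporter SLC38A2 by 0.63 on the log2 scale, and NFAT5 itself had 4477 and 3848 normalized counts against 2730 and 2894 (0.57 ± 0.10). ATP1B3, a pump beta subunit, had 15613 and 15696 against 4740 and 5108 (1.67 ± 0.08). ATP1B1, another, had 2754 and 3211 against 1138 and 1046 (1.45 ± 0.12). Both of these pump genes were more than 2-fold higher with no overlap of the groups. The kinase SGK1 rose by 1.21, and the potassium-chloride cotransporter SLC12A4 by 0.80. The cotransporter SLC12A2 (-0.05), the volume-regulated channel subunits LRRC8B, LRRC8C and LRRC8D and the aquaporins AQP1 and AQP3 were not called, while LRRC8A (-0.32) and the kinase STK39 (-0.39) fell. The tonicity-responsive element, added to the motifs after the data were seen, was in 3.42% of promoters of genes called at least 2-fold higher, 2.78% of those called at least 2-fold lower and 3.06% of members. Its share of all 27305 promoters was 5.02%. Among the osmotic genes called higher for which RefSeq gave a promoter, SLC38A2 was the only one with a match in this window. The match is shown here in capitals (chr12:46372724-46373023, minus strand).
SLC38A2: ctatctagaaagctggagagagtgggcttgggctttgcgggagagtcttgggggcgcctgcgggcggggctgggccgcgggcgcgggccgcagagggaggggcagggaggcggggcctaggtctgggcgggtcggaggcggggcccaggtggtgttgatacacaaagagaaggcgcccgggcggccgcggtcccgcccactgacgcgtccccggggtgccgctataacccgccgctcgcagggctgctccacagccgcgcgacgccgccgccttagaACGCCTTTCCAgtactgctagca

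NRF2 is a factor that is freed from KEAP1 by oxidants and electrophiles. Antioxidant genes regulated by NRF2 were called higher in 17 of 22 (77.3%) and lower in 2 (9.09%), with a median of 0.72. The aldo-keto reductases led. AKR1C1 had 9620 and 9237 normalized counts against 550 and 597 (4.04 ± 0.10). AKR1C2 had 2443 and 2545 against 151 and 138 (4.10 ± 0.15). AKR1C3 had 228 and 290 against 15.3 and 11.8 (4.24 ± 0.44). The 3 genes, neighbours on chromosome 10, rose by similar factors of 16.5 to 18.9, and AKR1B10 on chromosome 7 had 512 and 494 against 29.1 and 32.0 (4.05 ± 0.30). These paralogues are similar in sequence, and the share of reads assigned to the wrong member is not known. ME1, the malic enzyme that makes NADPH, had 9024 and 9052 against 2418 and 2610 (1.85 ± 0.09). NQO1 and HMOX1, the usual readouts of NRF2, rose less, by 0.80 and 0.98, TXNRD1 by 0.27, and TXN (-0.03) was not called. The 2 that fell were PGD (-1.02) and SOD2 (-0.50).

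The integrated stress response, in which ATF4 raises genes for amino acid supply and redox balance, was called higher in 16 of 23 genes and lower in 3 (median 0.82). ATF4 had 13631 and 15140 normalized counts against 5686 and 5444 (1.37 ± 0.09). ATF3 had 1197 and 1836 against 331 and 351 (2.15 ± 0.19), and NUPR1, a stress-induced chromatin protein, 1405 and 1516 against 394 and 308 (2.05 ± 0.15). The asparagine synthetase ASNS rose by 2.13 ± 0.48 at a mean of 63.9, DDIT3 (CHOP) by 1.11 and the cystine transporter SLC7A11 by 1.03. These 6 genes stood 2-fold or more above untreated cells, while most of the list did not. CHAC1, STC2 and WARS1 fell, and PSPH, SHMT2, VLDLR and CARS1 were not called.

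Chaperones of the endoplasmic reticulum moved the other way. Of 23 genes of ER folding and the unfolded protein response, 13 were called lower (56.5%) and 4 higher (17.4%), with a median of -0.32. HSPA5 (BiP), the main ER chaperone, fell by 1.08 ± 0.09 at a mean of 23463. PDIA4, a disulfide isomerase, had 2636 and 3091 against 8500 and 7467 (-1.48 ± 0.11). MANF had 653 and 658 against 1788 and 1719 (-1.42 ± 0.12), and CRELD2 476 and 506 against 1673 and 1524 (-1.71 ± 0.13). The 4 that rose were XBP1 (0.40), HERPUD1, DNAJC3 and ERN1. Cytosolic heat shock genes were called higher in 12 of 20 (60%) and lower in 5 (25%), with a median of 0.34. CRYAB, a small heat shock protein, had 3053 and 2901 against 378 and 602 (2.60 ± 0.33). HSPH1 (HSP110) had 15603 and 16939 against 4977 and 4906 (1.72 ± 0.08) and DNAJA1 18105 and 19617 against 6742 and 7040 (1.45 ± 0.08). The largest fall of this list was SERPINH1 (-1.22), a collagen chaperone that resides in the ER, and the mitochondrial chaperones HSPD1 and HSPE1 fell as well.

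**Figure D3:**
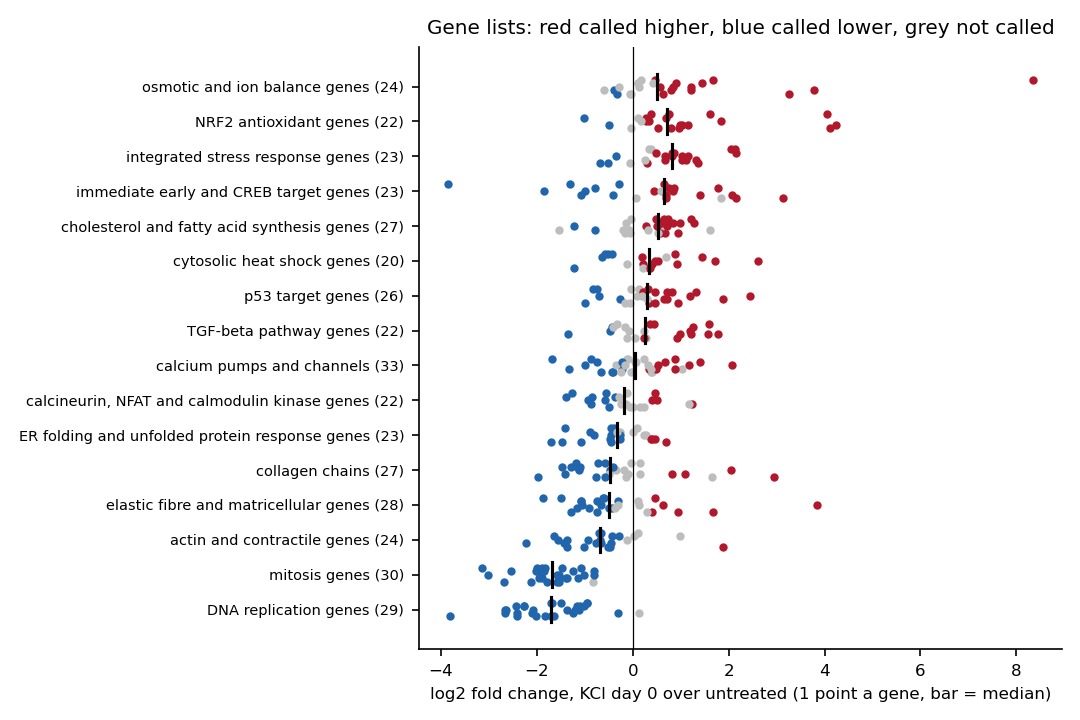
Log2 fold change at day 0 (x axis) of each measured gene in 16 lists, with the number measured in brackets and the median as a bar. Red points were called higher, blue lower and grey not called. The DNA replication and mitosis genes lie to the left of 0 with 1 exception, and the rightmost point is SLC6A12.

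Genes of calcium entry and calcium signalling moved in both directions. Of 33 calcium pumps and channels 9 were called higher and 10 lower (57.6% called, against 50.1% of members), with a median of 0.04. ITPR1, a calcium release channel of the ER, had 574 and 555 normalized counts against 220 and 203 (1.41 ± 0.19). The L-type channel gene CACNA1C rose by 2.08 ± 0.87 at a mean of 17.98, and its call was lost when the deeper KCl or the deeper untreated library was left out. TRPC6 had 76.9 and 62.2 against 222 and 230 (-1.69 ± 0.28), and the sodium-calcium exchanger SLC8A1 498 and 470 against 1363 and 1081 (-1.34 ± 0.15). The pump ATP2B1 (-0.03) and the store sensor STIM1 (0.04) were not called.

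Genes of calcineurin and its partners also changed in both directions. Of 22 calcineurin, NFAT and calmodulin kinase genes 4 were called higher (18.2%) and 9 lower (40.9%), with a median of -0.19. RCAN1, a calcineurin inhibitor that NFAT itself induces, had 3376 and 4423 normalized counts against 3318 and 3668 (0.16 ± 0.13) and was not called. NFATC1 had 509 and 546 against 226 and 224 (1.23 ± 0.19). CAMK2D had 2212 and 2379 against 5643 and 5464 (-1.28 ± 0.09), and CAMK1D fell by 1.39. The calmodulin gene CALM3 fell by 0.86.

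Immediate early and CREB target genes were called higher in 12 of 23 (52.2%) and lower in 8 (34.8%), with a median of 0.65. NR4A1, an orphan nuclear receptor, had 386 and 736 normalized counts against 125 and 141 (2.07 ± 0.28). FOS had 94.6 and 463 against 31.9 and 32.0 (3.13 ± 1.05). The KCl libraries thus lay far apart in FOS, and neither its call nor that of FOSB was held by limma on the recovered reads (adjusted p = 0.166 and 0.404 with limma voom and Benjamini-Hochberg adjustment). EGR1 had 297 and 381 against 1393 and 1043 (-1.85 ± 0.18), EGR3 had 0.955 and 2.63 against 29.1 and 18.5 (-3.85 ± 1.08), and FOSL1 (-1.31), JUN (-1.09) and MYC (-0.99) fell. The AP-1 genes were split, with FOS, FOSB, FOSL2, JUNB and JUND called higher in the authors' table and FOSL1 and JUN called lower.

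Other genes tied to membrane potential and cyclic AMP were as mixed. Of 17 potassium channels 3 were called higher (17.6%) and 6 lower (35.3%). KCNJ15, an inward rectifier, had 334 and 329 against 16.6 and 32.0 (3.80 ± 0.36), KCNT2 rose by 2.80 ± 0.55, and the large-conductance channel KCNMA1 had 1666 and 1882 against 3484 and 2841 (-0.84 ± 0.12). Of 21 cyclic AMP genes 4 were called higher and 8 lower. The phosphodiesterase PDE1A, which calmodulin activates, had 34.9 and 43.8 against 5.55 and 8.41 (2.51 ± 0.78), and PDE5A fell by 1.25. Of 6 neuropeptide and secretory granule genes, BDNF rose by 0.38 ± 0.10 and 2 fell, and another 8 of that list were under 10.

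Cell cycle genes fell almost without exception. Of 29 DNA replication genes 28 were called lower and 0 higher (96.6%, against 25.7% of members), with a median of -1.70. Of 30 mitosis genes 29 were called lower (96.7%) and 0 higher (median -1.69), and in all 30 both KCl libraries lay below both untreated ones. At an unadjusted p under 0.05 and by limma voom the count of higher genes was 0 in both lists as well. RRM2, a subunit of ribonucleotide reductase, had 504 and 632 normalized counts against 3768 and 3380 (-2.66 ± 0.13). CDK1, the kinase that starts mitosis, had 69.7 and 137 against 826 and 804 (-3.01 ± 0.25). MKI67, the proliferation marker Ki-67, had 921 and 1154 against 5087 and 3956 (-2.13 ± 0.14). PCNA moved least among the called ones, from 2523 and 2334 to 1869 and 2047 (-0.31 ± 0.10), and its call was lost when the deeper KCl library was left out. LMNB1, the lamin whose loss marks senescent cells, had 124 and 174 against 1407 and 1187 (-3.14 ± 0.18). Fewer cycling cells and less of these RNAs in each cell cannot be told apart in bulk RNA.

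Late cell cycle promoters often carry the cell cycle genes homology region (CHR), TTTGAA or TTCGAA, beside CCAAT boxes. Of the 46 called DNA replication and mitosis genes with a promoter, 19 held a CHR (41.3%, against 11.4% of members and 16.6% of all promoters) and 31 a CCAAT box (67.4%, against 36.2% and 35.7%). CDK1 (chr10:60778081-60778380, plus strand) and TOP2A (chr17:40417847-40418146, minus strand), which encodes topoisomerase 2-alpha and fell by 2.68, are those with a CHR that fell most. The CHR is in capitals, on either strand.
CDK1: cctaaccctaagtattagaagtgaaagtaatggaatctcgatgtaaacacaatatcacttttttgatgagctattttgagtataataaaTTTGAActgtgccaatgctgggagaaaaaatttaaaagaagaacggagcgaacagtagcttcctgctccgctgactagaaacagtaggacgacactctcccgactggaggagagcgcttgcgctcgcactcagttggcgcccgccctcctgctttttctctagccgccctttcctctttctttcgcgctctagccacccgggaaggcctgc
TOP2A: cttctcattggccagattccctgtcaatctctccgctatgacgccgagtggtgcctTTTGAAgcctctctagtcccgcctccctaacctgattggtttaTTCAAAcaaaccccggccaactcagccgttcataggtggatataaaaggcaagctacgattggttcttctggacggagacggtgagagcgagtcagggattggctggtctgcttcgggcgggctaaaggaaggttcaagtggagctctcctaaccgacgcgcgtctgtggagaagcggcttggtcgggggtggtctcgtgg

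Among the G1 regulators, 3 of 16 were called higher (18.75%) and 7 lower (43.75%). CDKN2B, which encodes the inhibitor p15, had 1558 and 1799 normalized counts against 334 and 257 (2.50 ± 0.16). CDKN1A, which encodes p21, rose by 0.35 ± 0.08 at a mean of 25435, and CDKN2A, which encodes p16 and ARF, had 533 and 577 against 618 and 612 (-0.15 ± 0.15) and was not called. The largest rise among these inhibitors was thus that of p15. CDKN2C, which encodes p18, had 107 and 124 against 571 and 476 (-2.19 ± 0.21), and CCND1, which encodes cyclin D1, fell by 0.90. The p53 targets were called higher in 14 of 26 (53.8%) and lower in 5 (19.2%), with a median of 0.30. GDF15, a secreted stress factor that ATF4 also induces, had 5464 and 5369 against 1047 and 952 (2.44 ± 0.10). The phosphatase PPM1D had 2014 and 2335 against 531 and 649 (1.88 ± 0.14), while MDM2 (-0.26) and XPC (-0.99) fell. Of 15 BCL2 family genes 7 were called higher (46.7%) and 3 lower (20%). Beside BMF, the pro-apoptotic BCL2L11 (BIM) had 92.2 and 175 against 26.3 and 25.2 (2.36 ± 0.47), BCL2 fell by 1.38 ± 0.41 and MCL1 by 0.28. In the same list BCL2L1 rose by 0.53 ± 0.09 and BOK fell by 1.06 ± 0.12.

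Extracellular matrix and contractile genes fell in most cases. Of 27 collagen chains 14 were called lower (51.9%) and 4 higher (14.8%), with a median of -0.47. COL1A1, the main chain of type I collagen, fell by 1.98 ± 0.11 from one of the highest levels in the table (mean 192421), COL1A2 by 1.42 ± 0.11 and COL3A1 by 0.47 ± 0.11. COL10A1 had 66.4 and 72.7 against 16.6 and 16.8 (2.05 ± 0.54). Of 28 elastic fibre and matricellular genes 16 were called lower (57.1%) and 6 higher (21.4%), with a median of -0.49. The crosslinking enzyme LOXL1 had 1777 and 2016 against 7335 and 6611 (-1.88 ± 0.10), ELN, which encodes elastin, fell by 1.29 ± 0.31, and TNC, which encodes tenascin C, rose by 1.67 ± 0.25. FN1 (-0.49 ± 0.23) and THBS1 (0.14 ± 0.10) were not called. Of 24 actin and contractile genes 19 were called lower (79.2%) and 1 higher (4.17%), with a median of -0.67. ACTA2, the smooth muscle actin of myofibroblasts, had 3056 and 3174 against 7778 and 8446 (-1.38 ± 0.09), and LMOD1, an actin nucleator of contractile cells, 522 and 652 against 2831 and 2649 (-2.23 ± 0.13). The gene called higher was DES, at a mean of 33.1.

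Of 25 laminins and integrins 4 were called higher (16%) and 11 lower (44%). The integrin subunit gene ITGB8 had 1128 and 1347 against 227 and 234 (2.42 ± 0.16), and ITGA6 1469 and 1880 against 5539 and 5473 (-1.72 ± 0.12). Of 19 cell adhesion receptors 3 were called higher (15.8%) and 10 lower (52.6%). JAM2 had 323 and 397 against 45.8 and 26.9 (3.28 ± 0.32), while VCAM1, which binds leukocytes, had 41.6 and 42.0 against 972 and 590 (-4.23 ± 0.26) and ICAM1 705 and 678 against 1960 and 1485 (-1.32 ± 0.14). Of 25 matrix proteases and inhibitors 6 were called higher (24%) and 9 lower (36%). TIMP4, an inhibitor of matrix metalloproteinases, rose by 2.27 ± 0.33, ADAMTS2 fell by 1.87 ± 0.12, and MMP1 and MMP3 were not called.

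The 20 leading falls ran from -5.02 to -2.82. GMNC, a regulator of multiciliated cells, had 5.73 and 13.1 normalized counts against 237 and 331 (-5.02 ± 0.41). GSDMD, the pore-forming gasdermin D, had 11.5 and 7.88 against 256 and 217 (-4.57 ± 0.39). DLL4, a Notch ligand, had 62.6 and 94.6 against 764 and 1271 (-3.70 ± 0.47), and the receptor gene KIT 33.4 and 29.8 against 410 and 345 (-3.57 ± 0.27). Each of these had fewer than 100 counts in both KCl libraries and more than 200 in both untreated ones. CEMIP, which degrades hyaluronan, was the most abundant of the 20, with 1711 and 2544 against 20583 and 19087 (-3.22 ± 0.29). CDCA7, FAM111B, LMNB1 and CDK1 are cell cycle genes, and SLC7A14, SHISA3, SSTR1, PCYOX1L, CLDN11, PAQR4, GALNT15 and SDSL completed the set.

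TXNIP and ARRDC4, both among the leading falls, encode related arrestins that respond to glucose and hold back its uptake. TXNIP had 316 and 461 normalized counts against 3871 and 4125 (-3.38 ± 0.15), and ARRDC4 231 and 372 against 2218 and 3274 (-3.19 ± 0.43). In both the KCl libraries lay far below the untreated ones, and in ARRDC4 both pairs were spread more widely. Glycolysis and hypoxia genes were called higher in 10 of 24 (41.7%) and lower in 7 (29.2%), with a median of 0.19. The hexokinase gene HK2 had 451 and 545 against 2303 and 2163 (-2.17 ± 0.13), the glucose transporter gene SLC2A1 4438 and 4686 against 9390 and 10580 (-1.13 ± 0.09), and PDK1 fell by 1.66 ± 0.21. VEGFA had 3046 and 3561 against 1580 and 1292 (1.20 ± 0.12), and ALDOA rose by 1.33 ± 0.16. LDHA was listed at a mean of only 19.8, low for a glycolytic enzyme, and the cause was not tested.

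Secreted signals and their receptors changed in both directions. Of 23 growth factors 10 were called higher (43.5%, against 24.5% of members) and 6 lower (26.1%, against 25.7%). PGF, the placental growth factor, had 97.0 and 159 normalized counts against 5.55 and 10.1 (4.06 ± 0.61), and FGF5 1685 and 1947 against 7446 and 7205 (-2.01 ± 0.10). Of 14 genes of the interleukin 6 family 3 were called higher (21.4%) and 5 lower (35.7%). LIF had 372 and 364 against 2247 and 1976 (-2.52 ± 0.12), while IL6 (-0.74 ± 0.45) and IL11 (0.04 ± 0.14) were not called. Of 17 interleukin 1 and NF-kB genes 6 were called each way (35.3%). IL1RL1, the receptor of interleukin 33, rose by 3.94 ± 0.72 at a mean of 44.8, BIRC3 fell by 2.01 ± 0.26 and RELB by 1.60 ± 0.22.

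Of 20 chemokine ligands 8 were measured, 1 called higher (12.5%) and 2 lower (25%). CCL26 had 86.0 and 90.2 against 5.55 and 1.68 (4.55 ± 0.79). CXCL12 fell by 1.39 and CCL2 by 0.91, and CXCL8, with 33.3 and 227 in the untreated libraries, was not called (0.25 ± 1.20). Prostaglandin genes were called higher in 5 of 12 and lower in 5 (41.7% each way). PTGS2 (COX-2) had 284 and 614 against 24.95 and 72.3 (3.21 ± 0.88), PTGS1 20710 and 21311 against 7072 and 7908 (1.49 ± 0.08) and PTGES 243 and 258 against 86.0 and 108 (1.37 ± 0.27). Both cyclooxygenase genes and this prostaglandin E synthase gene thus rose, and the prostaglandin F receptor gene PTGFR fell by 1.90 ± 0.24. Interferon-stimulated genes were called higher in 3 of 21 and lower in 3 (28.6% called, against 50.1% of members).

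The TGF-beta pathway was called higher in 11 of 22 (50%) and lower in 3 (13.6%), with a median of 0.26. TGFB2 had 2532 and 2434 normalized counts against 828 and 859 (1.56 ± 0.11) and SKIL, a feedback inhibitor, 3776 and 3565 against 962 and 1171 (1.79 ± 0.12). TGFB1 (0.05 ± 0.09) was not called, and LTBP1, which stores latent TGF-beta in the matrix, fell by 1.35 ± 0.10. Of 20 BMP and ID genes 7 were called higher (35%) and 5 lower (25%), with BMP4 at 3322 and 3001 against 1228 and 789 (1.65 ± 0.32). Of 18 WNT ligands and inhibitors 3 were called higher (16.7%) and 8 lower (44.4%). WNT5A had 21608 and 18967 against 8361 and 9065 (1.22 ± 0.09), and WNT5B 1041 and 1240 against 4484 and 4063 (-1.91 ± 0.11). These related noncanonical ligands moved in opposite directions. WNT16 fell by 2.68 ± 0.49. Of 14 genes of the IGF axis 4 were called each way (28.6%), IGFBP3 falling by 2.02 ± 0.12 and IGF1R rising by 0.91 ± 0.09. YAP and TEAD targets were called higher in 9 of 20 (45%) and lower in 8 (40%), with CCN2 falling by 0.59 and AJUBA rising by 1.60. NT5E, the ecto-nucleotidase CD73, stood at 4028 and 4997 against 22856 and 25271 (-2.42 ± 0.11). Of 7 EGF receptor ligands and receptors NRG1 rose by 1.41 and EGFR fell by 0.40. Of 14 DUSP and Sprouty feedback genes 2 were called higher (14.3%) and 3 lower (21.4%). The receptor gene PDGFRA had 25103 and 23757 against 10091 and 8587 (1.39 ± 0.09).

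Lipid and organelle genes formed smaller patterns. Cholesterol and fatty acid synthesis genes were called higher in 14 of 27 (51.9%) and lower in 2 (7.41%), with a median of 0.53. HMGCS1 had 1783 and 1555 normalized counts against 783 and 590 (1.28 ± 0.15), SQLE rose by 1.22 and SREBF1 fell by 1.23. Lysosome and autophagy genes were called higher in 12 of 22 (54.5%) and lower in 5 (22.7%), with a median of 0.21. MCOLN1, a lysosomal calcium channel, had 2014 and 2007 against 614 and 617 (1.71 ± 0.12), and CTSK rose by 1.16. Membrane repair genes were called higher in 4 of 26 (15.4%, against 24.5% of members) and lower in 7 (26.9%, against 25.7%), and their median was 0.00. The ESCRT-III gene CHMP4B rose by 0.31 and ANXA3 by 1.69, while ANXA7 fell by 1.04, CHMP3 and ANXA6 by 0.67 each and ANXA2 by 0.26. Of 13 mitochondrially encoded genes 1 was called higher (7.69%) and 6 lower (46.2%), all within 0.40 of 0 on the log2 scale. Of 17 circadian clock genes 8 were called higher (47.1%) and 2 lower (11.8%), CRY1 leading with 1.42 ± 0.12. Of 8 metallothionein and zinc genes 1 was called higher (12.5%) and 4 lower (50%), MT1E having 171 and 153 against 968 and 1246 (-2.76 ± 0.17). Of 14 long noncoding RNAs of stress 6 were called higher (42.9%) and 2 lower (14.3%). LINC-PINT had 880 and 902 against 98.4 and 74.0 (3.36 ± 0.21), and NEAT1 and MALAT1 rose by 0.62 and 0.76.

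A set of genes had almost no reads in untreated cells. In 60 members the untreated libraries held at most 3 reads in all and the KCl libraries at least 100, and in 0 members was this the other way round, although the KCl libraries were also the deeper ones and so reached 100 reads more easily. Of the 60, 58 were called, and the other 2, ABCF1 and TAP1, had nearly all of their reads in the shallower KCl library. All 60 were chosen for few untreated and many KCl reads, and they reached the level limit for members almost wholly through the KCl libraries. The number called therefore describes that choice and is no separate test of a rise. LINC00882 had 2120 reads in KCl-treated and 3 in untreated cells, a ratio of 287 with a 95% interval of 98.2 to 1395. RARB, the retinoic acid receptor beta, had 799 reads against 1, a ratio of 325 (58.2 to 12852). PECAM1, an adhesion molecule of endothelial cells, had 374 reads against 3, a ratio of 50.7 (17.2 to 247), at 103 and 138 normalized counts against 0 and 5.05. PDK4, a kinase that inhibits pyruvate dehydrogenase, had 272 reads against 0, at least 36.9-fold higher when 3 reads over the untreated group are taken as the floor (29.8 at the lower 95% limit for counting error). Of these SLC6A12 and PECAM1 were named by rule and LINC00882, RARB, PDK4, ABCF1 and TAP1 after their values were seen, and the intervals cover counting error only. Over the 5 endothelial markers the summed level was 173 and 229 in the KCl libraries and 43.0 and 50.5 in the untreated ones, VWF was not called (0.92 ± 0.45), and the part of other cells in the rise of PECAM1 was not tested.

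The day 0 changes were set against those of the other treatments at the same time. For each gene the treatments' log2 fold changes were subtracted and divided by their combined standard error. Since the untreated libraries enter on both sides, their error is included in excess and too few genes are called. Against PMD-Sen day 0, 5720 of 14151 genes differed (40.4%), 2665 more positive and 3055 more negative in KCl-treated cells. Against DDR-Sen day 0, 5486 of 14859 differed (36.9%), 2711 more positive and 2775 more negative. The comparisons share their untreated libraries, so each treatment's own values are given side by side.

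Several osmotic and pump genes stood higher after KCl than after both other treatments. AKR1B1 stood at 3.79 ± 0.26 after KCl, 0.62 ± 0.14 after SDS and 0.24 ± 0.15 after DXR. SLC5A3 stood at 3.25 ± 0.10, -0.73 ± 0.14 and 0.47 ± 0.39, and ATP1B3 at 1.67 ± 0.08, 0.05 ± 0.10 and 0.36 ± 0.12. Of 23 osmotic and ion balance genes measured in both, 12 were more positive after KCl than after SDS and 2 more negative, and 12 and 1 against DXR. Over all genes these counts were 2665 and 3055 of 14151 against SDS, and 2711 and 2775 of 14859 against DXR. SLC6A12 could not be compared, as its mean was 1.88 in the SDS table and 1.85 in the DXR table. Of the 20 leading rises, all 15 measured after SDS were more positive after KCl, and 19 of 20 against DXR, the exception being AKR1B10 (3.58 ± 0.37 after DXR). These genes were chosen for their rise after KCl, so the counts describe that choice.

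The ER chaperones set KCl apart from SDS. HSPA5 stood at -1.08 ± 0.09 after KCl and 2.85 ± 0.11 after SDS, a difference of -3.93 ± 0.14 (adjusted p = 2.6e-159, two-sided normal test with Benjamini-Hochberg adjustment). Of 23 ER folding and unfolded protein response genes 22 were more negative after KCl than after SDS and 0 more positive, with medians of -0.32 and 1.01. Over all genes 3055 of 14151 were more negative than after SDS and 2665 more positive. Against DXR, 2711 of 14859 were more positive and 2775 more negative. In the integrated stress response 17 of 23 were more negative after KCl than after SDS (medians 0.82 and 2.16) and 1 more positive, while against DXR (median -0.02) 16 were more positive and 1 more negative. ATF4 itself stood at 1.37 ± 0.09 after KCl and 1.59 ± 0.09 after SDS, and the difference of -0.22 ± 0.13 did not pass the test. ATF4 was thus called higher after both, whereas the ER genes HSPA5 and MANF were called in opposite directions.

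Mitosis genes had fallen less after KCl than after DXR. The median of the mitosis genes was -1.79 after KCl, -2.45 after SDS and -4.49 after DXR for the 29 measured in each pair. All 29 were more positive after KCl than after DXR, against 13 than after SDS. Over all genes these counts were 2711 of 14859 and 2665 of 14151. CDK1 stood at -3.01 ± 0.25, -2.45 ± 0.23 and -5.23 ± 0.24. The p53 targets were more negative after KCl than after DXR in 20 of 26 and more positive in 3 (medians 0.30 and 1.44). Over all genes 2775 of 14859 were more negative and 2711 more positive. GDF15 stood at 2.44 ± 0.10 after KCl, 4.10 ± 0.11 after SDS and 3.84 ± 0.17 after DXR. COL1A1 stood at -1.98 ± 0.11, -0.57 ± 0.34 and -0.07 ± 0.12, and TXNIP at -3.38 ± 0.15, -0.69 ± 0.13 and -0.23 ± 0.15, each lower after KCl than after either of the others. GSDMD stood at -4.57 ± 0.39, -4.57 ± 0.49 and -4.32 ± 0.35, and no difference was detected between the treatments. PRSS35 stood at 4.08 ± 0.14 after KCl and -3.58 ± 0.38 after SDS, and PDGFRA at 1.39 ± 0.09 and -2.42 ± 0.13.

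**Figure D4:**
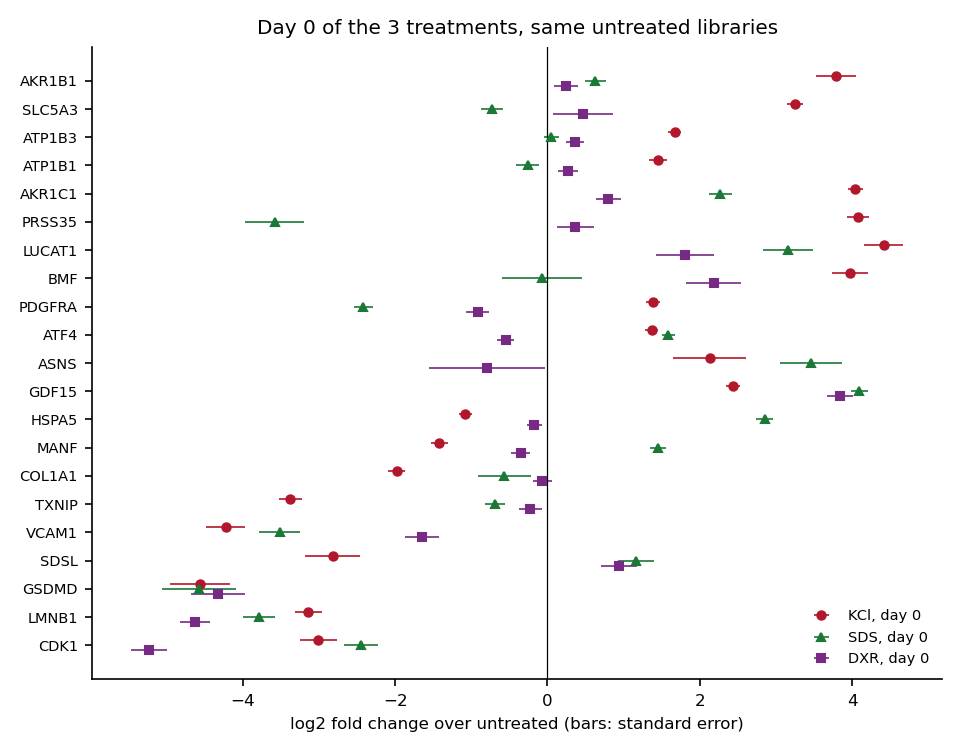
Log2 fold change over the same untreated libraries (x axis, bars are standard errors) of 21 genes on day 0 after KCl (circles), SDS (triangles) and DXR (squares). AKR1B1, SLC5A3, ATP1B3 and ATP1B1 lie farther to the right after KCl than after SDS or DXR, HSPA5 and MANF lie on opposite sides of 0 after KCl and SDS, and the 3 symbols of GSDMD lie together.

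Fewer genes were called 1 day after the KCl had been washed out. Between day 0 and day 1, 5427 of 14414 genes differed (37.7%), 2437 more positive and 2990 more negative on day 0. On day 1 a mean of 10 was reached by 14601 genes, and 810 of these were called higher and 1065 lower. The median of the 20 leading rises went from 4.09 to 0.65, with 6 still called higher, and that of the 20 leading falls from -3.23 to -1.06, with 11 still called lower and 3 called higher. A shift toward 0 is in part fixed by choosing the largest values of day 0. FBXO2, which encodes a subunit of a ubiquitin ligase, had the highest value of the 20 on day 1, at 3.00. It stood at 1.00 on day 16, when CYP26B1 (2.66), AKR1C3 (1.95), AKR1C2 (1.87) and AKR1C1 (1.13) were among those above it.

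The groups differed in how far they went back. SLC5A3 stood at 0.01 ± 0.11 on day 1 and AKR1B1 at 2.20 ± 0.27, and the mean of SLC6A12 over the 4 libraries went from 249 on day 0 to 8.30 on day 1. The osmotic list went from 13 genes called higher and 2 lower to 4 and 2, and its median from 0.51 to 0.01. The antioxidant list went from 17 called higher and 2 lower to 3 and 4. The integrated stress response went from 16 higher and 3 lower to 3 and 4, with a median of 0.05. The mitosis genes were called lower in 28 of 30 on day 1 (median -0.90) and 29 of 29 on day 8 (median -2.94). LMNB1 stood at -1.55 on day 1 and -2.82 on day 8. The median of the mitosis genes and LMNB1 thus lay below untreated cells at each of the 8 times, whereas the medians of the osmotic, antioxidant and integrated stress lists lay between -0.40 and 0.19 from day 1 to day 16. On day 8, however, 9 of 22 antioxidant genes were called higher and 3 lower, with AKR1C1 at 1.68, AKR1C2 at 2.49 and AKR1C3 at 2.87. By day 16 there were 8 higher and 0 lower. Calls were also more widespread on day 8, with 2347 of all 14871 genes higher and 2654 lower. On day 16 these counts were 871 and 916 of 14530.

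**Figure D5:**
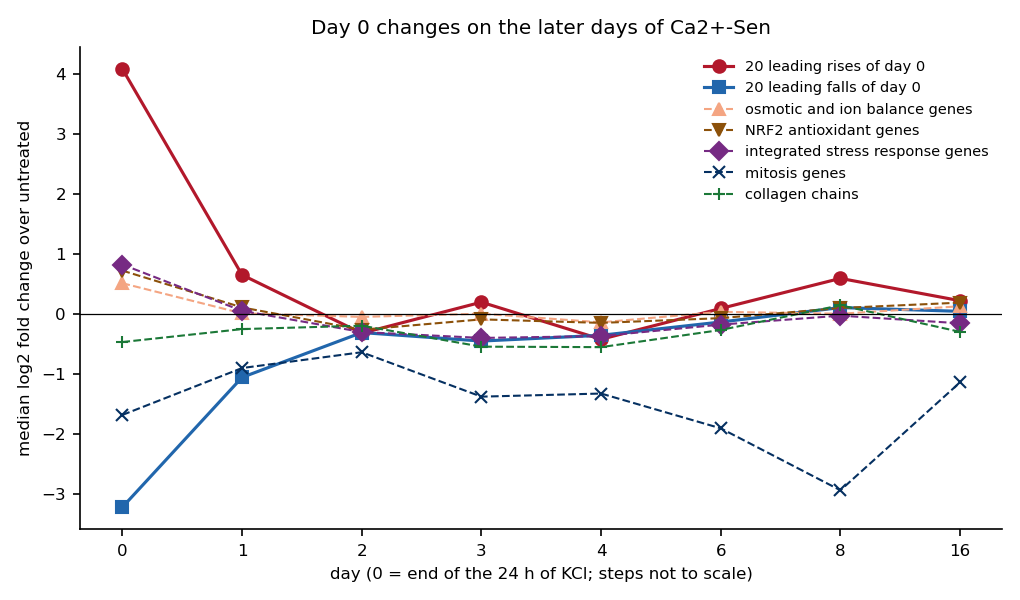
Median log2 fold change over untreated cells (y axis) on each of the 8 days of Ca2+-Sen (x axis, steps not to scale) for the 20 leading rises and falls of day 0 (solid lines) and 5 gene lists (dashed lines). The leading rises drop from 4.09 on day 0 to 0.65 on day 1, and the mitosis genes stay below 0 on every day with a low of -2.94 on day 8.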

How the data were processed

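RNA sequencing of WI-38 cells was used. Per the labels, reads were trimmed with Trim Galore, aligned with HISAT2 to GRCh38 (hg38), counted (HTSeq and featureCounts are both named) and tested with DESeq2. Versions, the annotation and the strand setting are not given in the sources used here. Each deposited table compares 1 treated group with the same untreated libraries. It holds the mean normalized count of the 4 libraries (a signal, divided by the authors' size factors), the log2 fold change and its standard error, the Wald statistic (a score) and the p-value, all from the authors. These columns were used because the tables are the deposited data, and the second copy of the table differed in 0 rows.

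Genes with a mean of at least 10 were kept, and 1 row named by positions was left out. The authors' two-sided Wald p-values received a Benjamini-Hochberg adjustment over the 15353 members, with calls at 0.05. Whole reads per library were recovered from the deposited means by searching counts that give each mean at the stated digits. Recovery was attempted up to a mean of 20000 (143 members lay above it), and 27 others gave no or no settled solution. Differences between tables were tested as a normal deviate of the difference of log2 fold changes. Leading genes were the 20 largest called changes each way with a mean of at least 100 and a standard error under 0.5. From each list the first 3 genes and the 6 largest called changes were named. Other list members, such as SLC6A6, SGK1, JUN and LDHA, were named after their values were seen, and some list members are not reported here. The members, lists and motifs were chosen with earlier results of these data known, and the limma, tonicity and antioxidant alternatives were added after seeing the data. Scripts were tested on simulated data. Analyses ran in R 4.3.3 with limma 3.58.1 and in Python 3.11.15 with pandas 2.3.3, NumPy 2.4.6, matplotlib 3.10.9 and SciPy 1.17.1.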

Additional observations from a re-analysis of the deposited data

Results flagged for a closer look

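These genes passed the test at least 2-fold in KCl-treated cells and at least 2-fold in the opposite direction in another group, and the difference itself passed its test. Values are log2 fold changes after KCl on day 0 minus those of the other group, and no explanation was tested.

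Against PMD-Sen day 0 (SDS) the differences were 6.64 for MYH15, 7.67 for PRSS35, 11.29 for ABCG1 and 5.91 for EDNRB, all leading rises after KCl, and -3.98 for SDSL, a leading fall. The value of ABCG1 rests on a fitted change of -7.36 ± 1.70 after SDS, from a low untreated level to near 0, so its size depends on the fit and is no bound. The signalling genes BMP4 and PDGFRA differed by 4.51 and 3.81, and the integrin gene ITGB8 by 5.12. The ER genes HSPA5 and MANF differed by -3.93 and -2.87, and the metallothionein genes MT1E and MT2A by -3.88 and -2.65. The remaining differences were 3.15 for PTGES, 2.65 for FOXF2, 2.63 for PKIG, 2.15 for PER3, -2.50 for BCL2, -2.60 for COL11A1 and -3.05 for CDH4.

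Against DDR-Sen day 0 (DXR) the differences were 5.53 for SLCO4A1, -4.45 for PCYOX1L, -2.99 for GDF5, -2.66 for CCND2, -2.78 for ITGA6 and -2.58 for NPTX1. Against Ca2+-Sen day 1 they were 2.84 for BMP4, -2.89 for MT2A, -2.51 for MT1L and -2.10 for KCND1.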

How the results depend on the processing

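With a change of at least 2-fold required, 1385 genes were called higher and 1512 lower, and differences of at least 2-fold numbered 1222 more positive and 1533 more negative against PMD-Sen day 0, 972 and 1372 against DDR-Sen day 0, and 803 and 1363 against Ca2+-Sen day 1. The other alternatives tried kept these counts within 1.5 times, from 3089 to 4418 higher and 3553 to 4592 lower. Limma voom on the recovered reads gave 4418 and 4592, and when 1 library was left out 3807 to 4131 and 3863 to 4322, the lone library being assumed to vary like the other pair. None of the 40 leading genes lost its call in limma or in these, while 3 of 296 named called genes did in limma (TGFB3, FOS and FOSB) and 5 to 10 with 1 library left out.

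Scaling by library totals, which removes a log2 ratio of the group sums of -0.06, turned ATP2B1 to 0.0346 and VPS4B to 0.0490. With 1 library left out in limma, sign changes among the named genes were seen only in genes that were not called. Their log2 fold changes then ranged from -0.0577 to 0.250 for DUSP1, -0.0658 to 0.155 for DUSP6, -0.442 to 0.998 for HBEGF, -0.0212 to 0.118 for TGFB1, -0.0708 to 0.804 for PRKAR2B, -0.0456 to 0.344 for RCAN1, -0.0737 to 0.0183 for ATP2B1, -0.658 to 2.09 for CXCL8, -0.245 to 0.728 for NR1D1, -0.135 to 0.5005 for IFIT1, -0.0891 to 0.170 for IL11, -0.347 to 0.675 for MMP3, -0.0203 to 0.459 for SCG2 and -0.320 to 0.0125 for EPCAM. No paired analysis was possible because the deposited columns do not carry replicate numbers. With 2 libraries a group the spread is poorly known, and the cause of these changes was not tested.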
